A study of Mus musculus with 6 samples.

Results

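Mki67 encodes the nuclear protein Ki-67, a marker of proliferating cells. This gene and 9 others whose protein products work with Ki-67 at the surface of mitotic chromosomes or share the nucleolus with it were followed in NIH/3T3 cells with and without an intact copy. The 9 partner genes were Nifk, Cdca2, Npm1, Ncl, Fbl, Pes1, Bop1, Wdr12 and Ddx21. The 10 genes were chosen by name, with earlier results of these data known, out of 54146 gene identifiers counted. All 10 were among the 13120 genes that had enough reads to be tested. NIH/3T3 is an immortalised line of fibroblasts from embryos of the Swiss albino mouse, and all samples shared that origin and 1 growth medium with serum. Knockout (KO) clone 1 and KO clone 2 had the genotype Mki67-/-, and the wild-type (WT) cells carried the unedited gene. Total RNA depleted of ribosomal RNA was sequenced with strand information, with 2 libraries for each of the 3 groups. Each KO group is 1 clone, so that what belongs to the loss of Mki67 and what belongs to a clone cannot be told apart within 1 clone. The sources used here do not give how the clones were made or where the gene was edited.

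Ki-67 is made in cycling cells and is the main organiser of the perichromosomal layer, a coat of nucleolar proteins and RNA that covers chromosomes in mitosis. In interphase the protein sits at the border of the nucleolus, where ribosomal RNA is transcribed and ribosomal subunits are assembled. Nifk binds the forkhead-associated domain of Ki-67, Cdca2 (Repo-Man) recruits protein phosphatase 1 to chromosomes at mitotic exit as Ki-67 also does, and the remaining genes encode nucleolar proteins that move to the chromosome surface in mitosis or act in ribosome assembly. The counts measure transcripts only. In bulk RNA, fewer cells that express a gene and less of its RNA per cell cannot be told apart.

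Gene counts summed to between 15087148 and 19678782 in the KO libraries, against 3873249 in WT replicate 1 and 11377172 in WT replicate 2, so that values of WT replicate 1 carry the largest counting error. Levels are CPM, the reads of a gene per 1e6 reads assigned to genes, with library sizes scaled by the trimmed mean of M-values (TMM). Differences are log2 fold changes with their standard errors from edgeR's quasi-likelihood test, adjusted by Benjamini-Hochberg over all 13120 genes, and a gene was called at an adjusted p below 0.05. Nothing in the labels shows that the 2 libraries of a group are separate cultures, so the spread behind each p-value may be technical only. The protocol text names 4T1, a mammary tumour line, while titles and tissue labels name NIH/3T3 fibroblasts. The 5 fibroblast markers Col1a1, Col1a2, Vim, Pdgfrb and Thy1 summed to 5516 to 5936 CPM in KO clone 1, 6410 to 6439 CPM in KO clone 2 and 7205 to 8161 CPM in WT cells. The 5 epithelial markers Epcam, Krt8, Krt18, Cdh1 and Cldn4 summed to at most 1.16, 0.925 and 0.814 CPM in the same 3 groups, with Epcam at 0 in all 6 libraries. Markers of endothelium (Pecam1 and Cdh5) summed to at most 1.61, 1.73 and 4.50 CPM, and those of leukocytes (Ptprc and Cd68) to at most 18.1, 12.7 and 19.5 CPM. The leukocyte sum was nearly all Cd68, at 11.7 to 19.3 CPM over the 6 libraries, while Ptprc did not exceed 0.360 CPM. The part of any of these markers in the results was not tested.

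Mki67 itself was checked first. Its level was 4.24 and 4.58 CPM in KO clone 1 and 4.32 and 7.69 CPM in KO clone 2, against 49.1 and 55.1 CPM in WT cells. The 4 KO libraries all lay far below both WT libraries, and no value overlapped. The underlying counts were 84, 73, 70 and 118 reads in the KO libraries, against 181 and 612 reads in the WT libraries. Mki67 fell by 3.57 ± 0.23 on the log2 scale in KO clone 1 (adjusted p = 1.18e-07) and fell by 3.13 ± 0.22 in KO clone 2 (adjusted p = 3.36e-07), which left 8.41% and 11.4% of the WT level. Against the 13120 genes tested, the fall of 3.35 ± 0.18 in the mean of both clones ranked 140th from the lowest. KO clone 2 over KO clone 1 gave 0.44 ± 0.24 (adjusted p = 0.434), and this difference came with 1 library: it was -0.03 without KO clone 2 replicate 2 and 0.80 without KO clone 2 replicate 1, and neither was called. Reads on the opposite strand of Mki67 numbered 6, 6, 7 and 1 in the KO libraries and 1 and 1 in the WT libraries. They made up 6.67%, 7.59%, 9.09% and 0.840% of the reads of both strands in the KO libraries, against 0.549% and 0.163% in WT cells. These shares grow when reads on the gene's own strand fall, and the KO libraries held more reads. A difference in opposite-strand reads between groups was not tested. The gene lies on the minus strand of chr7:135689784-135716361 (GRCm38, ENSMUSG00000031004) and has 14 merged exons of 10061 bases. The files give 1 count for the whole gene, so reads before and after the edited site are not separated.

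**Figure D1:**
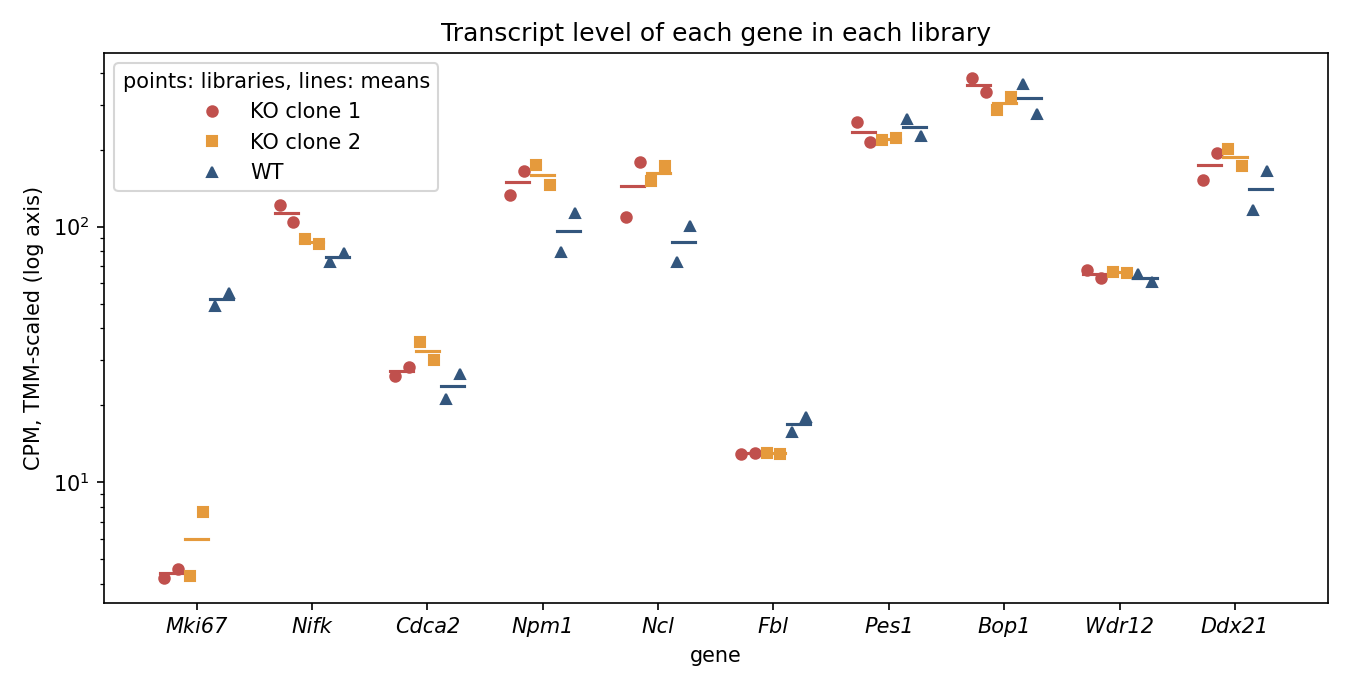
Level of each of the 10 genes in each of the 6 libraries, in TMM-scaled CPM on a log axis, with KO clone 1, KO clone 2 and WT from left to right within a gene. Points are libraries and short lines are group means: Mki67 stands at 4.24 to 7.69 CPM in KO libraries and at 49.1 to 55.1 CPM in WT libraries, while the other 9 genes differ between groups by far less.

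The start regions of Mki67, Nifk and Ncl are shown because these are the 3 called genes for which the RefSeq table held one. The table matched 6 of the 10 genes with 8 start windows; Cdca2, Npm1, Fbl and Bop1 had none. Each sequence is the 250 bases before the annotated start (RefSeq, GRCm38.p6), written 5′ to 3′ on the gene's own strand, and capitals mark matches on either strand to any of 6 motifs. The motifs were the E-box CACGTG, the CCAAT box CCAAT, the GC box GGGCGG, the E2F forms TTTGGCGC and TTTCGCGC and the cell cycle genes homology region (CHR) TTTGAA. Matches to different motifs did not overlap in the 3 sequences.
Mki67, minus strand, chr7:135716380-135716629: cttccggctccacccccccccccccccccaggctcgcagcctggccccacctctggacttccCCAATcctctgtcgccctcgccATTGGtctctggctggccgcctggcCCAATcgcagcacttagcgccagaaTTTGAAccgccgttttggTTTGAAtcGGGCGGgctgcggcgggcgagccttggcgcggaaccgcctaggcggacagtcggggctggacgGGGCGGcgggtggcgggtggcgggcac
Nifk, plus strand, chr1:118321593-118321842: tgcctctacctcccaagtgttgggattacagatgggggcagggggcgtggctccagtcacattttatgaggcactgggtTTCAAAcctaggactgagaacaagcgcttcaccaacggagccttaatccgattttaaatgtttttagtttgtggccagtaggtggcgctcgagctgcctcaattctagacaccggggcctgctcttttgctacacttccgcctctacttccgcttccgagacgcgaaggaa
Ncl, minus strand, chr1:86359456-86359705: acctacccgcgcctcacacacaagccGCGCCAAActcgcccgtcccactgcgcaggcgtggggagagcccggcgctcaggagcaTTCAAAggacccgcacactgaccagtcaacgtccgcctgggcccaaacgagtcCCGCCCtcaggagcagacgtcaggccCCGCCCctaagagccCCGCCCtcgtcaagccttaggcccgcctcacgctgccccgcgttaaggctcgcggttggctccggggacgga
The Mki67 window held 3 CCAAT boxes, 2 GC boxes and 2 CHR matches, the CHR matches beginning at −116 and −98 from the start. Nifk had 1 CHR match and no other. The Ncl window held 3 GC boxes, 1 CHR match and 1 match to the E2F form TTTGGCGC. Among 32851 windows of the same length, 33.8% held a CCAAT box, 32.7% a GC box, 16.0% a CHR match and 0.417% that E2F form. The E-box was in 6.02% of all windows and the form TTTCGCGC in 0.256%, and neither was in the sequences shown. These matches are letters in a window and were not tested as sites.

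Across the 10 genes, the mean of both KO clones against WT called 3 higher (Nifk, Npm1 and Ncl) and 1 lower (Mki67), where 34.8% of all genes tested were called, 16.6% higher and 18.2% lower. In KO clone 1, 3 were higher and 1 lower, the same 4 genes, against a background of 31.7% (15.2% higher, 16.5% lower). In KO clone 2, 2 were higher (Npm1 and Ncl) and 1 lower (Mki67), against 27.4% (12.9% higher, 14.5% lower). Called in either direction were 40% of the 10 genes in the mean and in KO clone 1 and 30% in KO clone 2, near those backgrounds. By direction, the shares were 30%, 30% and 20% higher and 10% lower in each, and they rest on 1 to 3 genes. Both clones were compared with the same 2 WT libraries, so these counts are not independent of each other. The median log2 fold change of the 9 partner genes was 0.29 in the mean of both clones, 0.17 in KO clone 1 and 0.19 in KO clone 2, beside 0.00, 0.01 and 0.00 over all genes. In 3 genes (Nifk, Npm1 and Ncl) all KO libraries lay above both WT libraries, in 2 (Mki67 and Fbl) all lay below, and in 5 the groups overlapped; of all genes, 25.1% had all KO libraries above and 24.7% below.

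Nifk, the Ki-67 FHA-domain binder, which also takes part in ribosomal RNA processing, had 121 and 104 CPM in KO clone 1 and 89.2 and 85.3 CPM in KO clone 2, against 73.0 and 79.1 CPM in WT cells. All 4 KO libraries stood above both WT libraries, and those of KO clone 1 stood above those of KO clone 2. Group means were 113 ± 12.3, 87.2 ± 2.77 and 76.0 ± 4.31 CPM (SD, n = 2 each). The rise in KO clone 1 was 0.56 ± 0.13 (adjusted p = 0.0053), and the mean of both clones rose by 0.38 ± 0.12 (adjusted p = 0.0219). In KO clone 2 the value was 0.19 ± 0.13 (adjusted p = 0.301). KO clone 2 over KO clone 1 gave -0.37 ± 0.13 (adjusted p = 0.145). When only the 2 clones were fitted, it was called at -0.39 (adjusted p = 0.0495). Without either WT library the value was the same and was called. WT libraries reach this contrast mainly through the spread shared by all groups. Calls between the clones rose over all genes in those fits, so they add no support for a Nifk difference. The call in the mean of both clones ended without WT replicate 1 (0.32), KO clone 1 replicate 1 (0.32), KO clone 2 replicate 1 (0.36) or KO clone 2 replicate 2 (0.39), and the call in KO clone 1 ended without its replicate 1 (0.45, adjusted p = 0.0608). The gene (ENSMUSG00000026377) lies on the plus strand of chr1:118321839-118333822 with 8 merged exons, and none of the 50-base windows of its transcript was found in another gene's transcripts.

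Cdca2 encodes Repo-Man, the other protein that brings protein phosphatase 1 to chromosomes as cells leave mitosis. It had 26.0 and 28.3 CPM in KO clone 1 and 35.3 and 30.1 CPM in KO clone 2, against 21.2 and 26.5 CPM in WT cells. Both libraries of KO clone 2 lay above the WT libraries, while KO clone 1 overlapped with them. The log2 differences were 0.16 ± 0.17 (adjusted p = 0.502) in KO clone 1 and 0.43 ± 0.17 (adjusted p = 0.0705) in KO clone 2, and 0.29 ± 0.15 in their mean (adjusted p = 0.141). KO clone 2 was called without WT replicate 2 (0.63, adjusted p = 0.0199), with library sizes left unscaled (0.51, 0.0467) and with a correction for GC content and length (0.51, 0.0122), under which the mean was called too (0.36, 0.0316). Without WT replicate 1 the mean was 0.17, and it was not called. Cdca2 (ENSMUSG00000048922) lies on the minus strand of chr14:67676331-67715841 and has 17 merged exons.

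Npm1, Ncl and Fbl encode the abundant nucleolar proteins nucleophosmin, nucleolin and fibrillarin. Npm1, a histone chaperone and assembly factor of the granular outer nucleolus, had 133 and 165 CPM in KO clone 1 and 174.8 and 145.1 CPM in KO clone 2, against 79.5 and 113 CPM in WT cells. All KO libraries lay above both WT libraries, although the WT libraries were themselves 0.51 apart on the log2 scale. Npm1 rose by 0.61 ± 0.17 in KO clone 1 (adjusted p = 0.0152) and by 0.72 ± 0.17 in KO clone 2 (adjusted p = 0.00772), which put the clones at 153% and 164% of WT. The call in KO clone 1 ended without its replicate 2 (0.45, adjusted p = 0.154) and that in KO clone 2 without its replicate 1 (0.57, adjusted p = 0.0926); without WT replicate 1, KO clone 1 gave 0.40 and was still called. Npm1 (ENSMUSG00000057113, minus strand, chr11:33152287-33163206) has processed copies in the genome, and 40.9% of the 50-base windows of its transcript also occur in 11 other genes, 10 of them pseudogenes, so its level rests on its unique stretches and is uncertain.

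Ncl, which binds ribosomal RNA precursors and acts in RNA polymerase I transcription, had 109 and 178.4 CPM in KO clone 1 and 151 and 173 CPM in KO clone 2, against 73.0 and 100 CPM in WT cells. Each KO library was above each WT library, and KO clone 1 had the widest spread. Group means were 144 ± 49.1, 162 ± 15.0 and 86.7 ± 19.4 CPM (SD, n = 2 each). The rise was 0.71 ± 0.21 in KO clone 1 (adjusted p = 0.0177) and 0.88 ± 0.21 in KO clone 2 (adjusted p = 0.00639), at 164% and 184% of WT. The call in KO clone 1 rested on 1 library: without KO clone 1 replicate 2 the value was 0.31 (adjusted p = 0.317). Snord82, a small nucleolar RNA gene inside Ncl on the same strand, had 7.77 and 9.17 CPM in KO clone 1 and 6.35 and 7.23 CPM in KO clone 2, against 9.23 and 6.22 CPM in WT cells, and these groups overlapped (0.06, adjusted p = 0.847). The small RNA genes Snora75 and Gm24148 within Ncl were at 0 in all libraries, and mmu-mir-3535 did not exceed 0.151 CPM. Ncl (ENSMUSG00000026234) lies on the minus strand of chr1:86344719-86359400.

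Fbl is the methyltransferase that box C/D small nucleolar RNAs guide to ribosomal RNA. It had 12.9 and 13.1 CPM in KO clone 1 and 13.1 and 13.0 CPM in KO clone 2, against 15.7 and 18.0 CPM in WT cells. The 4 KO libraries lay close together and below both WT libraries. The difference of -0.40 ± 0.15 in the mean of both clones had an adjusted p of 0.0547, which missed the threshold, and the clones alone gave -0.40 each (adjusted p = 0.0911 in KO clone 1 and 0.104 in KO clone 2). It was called with DESeq2's size factors in place of the trimmed mean (-0.40, adjusted p = 0.048) and without WT replicate 1 (-0.47, adjusted p = 0.0418). Of its transcript's windows, 73.0% also occur in 3 other genes, 2 of them pseudogenes, so Fbl (ENSMUSG00000046865, plus strand, chr7:28169710-28179269) is the least securely counted of the 10 genes.

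Pes1, Bop1 and Wdr12 encode the PeBoW complex, which is needed to process the precursor of the large ribosomal subunit's RNA. Pes1 had 256 and 215 CPM in KO clone 1 and 219 and 223 CPM in KO clone 2, against 263 and 227 CPM in WT cells. Bop1 had 382 and 336 CPM in KO clone 1 and 285 and 322 CPM in KO clone 2, against 363 and 276 CPM in WT cells. Wdr12 had 67.7 and 62.8 CPM in KO clone 1 and 66.5 and 66.0 CPM in KO clone 2, against 65.4 and 60.8 CPM in WT cells. None of the 3 subunits was called in either clone or in their mean, and the groups overlapped for each. In the mean of both clones the log2 differences were -0.10 ± 0.12 for Pes1 (adjusted p = 0.545), 0.05 ± 0.13 for Bop1 (0.795) and 0.07 ± 0.11 for Wdr12 (0.692). These directions were not stable: without WT replicate 1 Pes1 gave 0.0073, without WT replicate 2 Bop1 gave -0.13, and with the correction for GC content and length Wdr12 gave -0.37 (adjusted p = 0.0721), none of them called. Their WT replicates differed by -0.22, -0.40 and -0.11 on the log2 scale (replicate 2 over replicate 1). Bop1 (chr15:76452989-76477277, minus strand) overlaps the end of Mroh1 on the other strand, which stood at 86.8 to 106 CPM in KO libraries and 95.3 to 101 CPM in WT libraries. Pes1 (chr11:3963975-3980004, plus strand) shares 22.6% of its windows with 3 other genes, and Wdr12 (chr1:60069785-60098645, minus strand) 7.28%.

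Ddx21 is an RNA helicase that couples RNA polymerase I transcription to processing of ribosomal RNA. It had 153 and 195 CPM in KO clone 1 and 201 and 173 CPM in KO clone 2, against 116 and 165 CPM in WT cells. Both libraries of KO clone 2 lay above WT, and KO clone 1 overlapped with WT replicate 2. The differences of 0.29 ± 0.17 in KO clone 1 (adjusted p = 0.218) and 0.40 ± 0.17 in KO clone 2 (adjusted p = 0.101) were not called, nor was 0.34 ± 0.15 in their mean (adjusted p = 0.0938). The outcome turned on the WT libraries: without WT replicate 2 the values were 0.58, 0.69 and 0.64, and all 3 were called, while without WT replicate 1 they were 0.07, 0.18 and 0.12, and none was called. Ddx21 (ENSMUSG00000020075) lies on the minus strand of chr10:62580251-62602281, and none of its windows was found in another gene.

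Between the clones, 0 of the 10 genes were called by edgeR in KO clone 2 against KO clone 1, against 3.54% of all genes (1.18% higher, 2.36% lower); 1 gene, Nifk, had an unadjusted p below 0.05, and DESeq2 called 0. Apart from Mki67 and Nifk, the log2 differences ran from -0.24 ± 0.15 for Bop1 to 0.27 ± 0.15 for Cdca2. A miss of the threshold does not show that the clones express these genes alike.

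**Figure D2:**
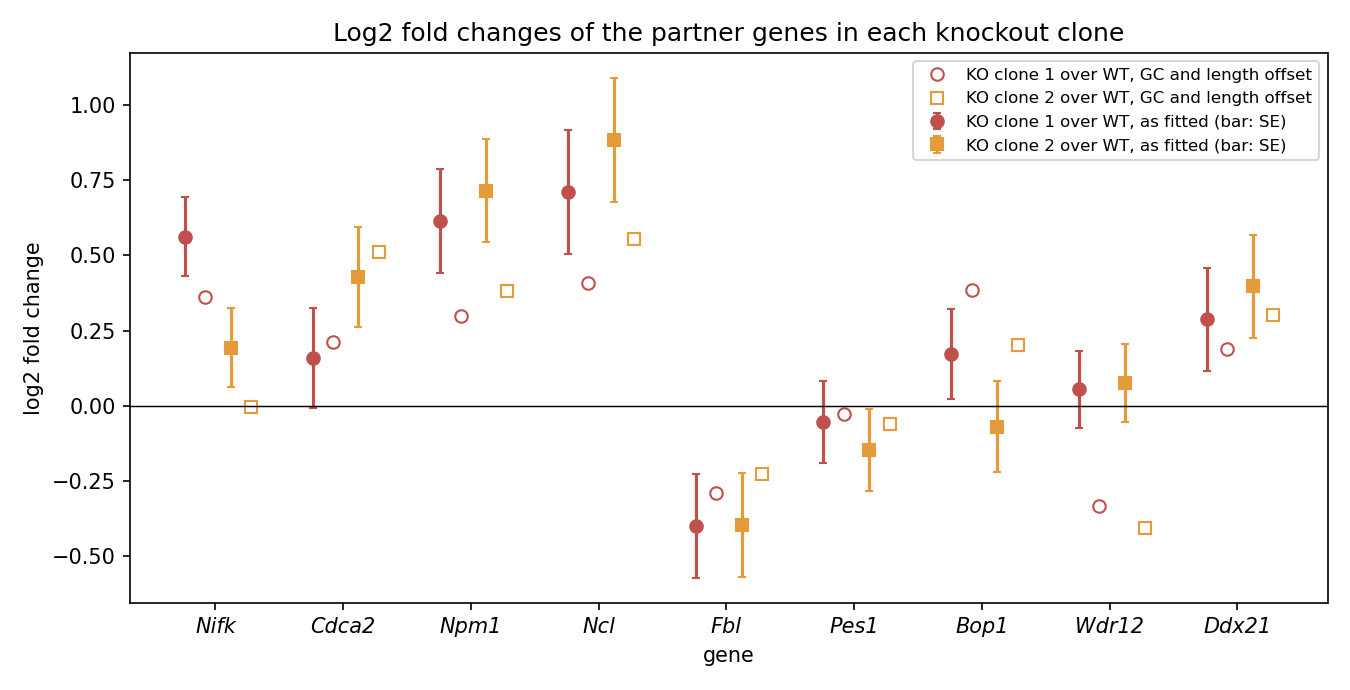
Log2 fold change over WT of the 9 partner genes in KO clone 1 (circles) and KO clone 2 (squares). Filled symbols with bars are the fit and its standard error, and open symbols are the same contrast with a correction for GC content and length: Npm1 and Ncl stay above 0 in both (0.30 to 0.88), while Wdr12 moves to -0.33 and -0.41.

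The 10 genes differ in the base composition of their transcripts, and base composition moved with the KO groups across all genes. All genes were ranked by GC content and cut into 5 classes of equal size. In the lowest class (27.5% to 43.8% GC), the median log2 fold change of the mean of both clones was 0.37, 35.2% were called higher and 6.44% lower. In the highest class (55.4% to 78.3% GC), the median was -0.21, 6.67% were called higher and 31.4% lower. The lowest class held Npm1, Ncl and Wdr12, and the next class, with a median of 0.14, held Mki67, Nifk and Ddx21. Cdca2 and Pes1 lay in the middle class, Fbl in the class above it and Bop1 in the highest. GC content was that of the longest annotated transcript. The longest coding transcript of Fbl has 56.7% GC, within the range of the highest class. The libraries did not move together: in the lowest class, the median deviation from each gene's own mean was -0.00 and 0.24 in KO clone 1 and 0.16 and 0.15 in KO clone 2, against -0.41 and -0.13 in WT cells. With an offset for GC content and length, the values in the mean of both clones were 0.48 for Ncl (adjusted p = 0.0138) and 0.34 for Npm1 (adjusted p = 0.0387), both still called, 0.18 for Nifk (adjusted p = 0.211), no longer called, and 0.36 for Cdca2 (adjusted p = 0.0316), now called. Wdr12 turned to -0.33 in KO clone 1, -0.41 in KO clone 2 and -0.37 in their mean, Bop1 in KO clone 2 to 0.20 and Nifk in KO clone 2 to -0.0042, none of them called. In KO clone 1, Nifk remained called (0.36, adjusted p = 0.0333), Ncl (0.41, 0.0522) and Npm1 (0.30, 0.102) did not, and Bop1 was called (0.38, 0.0314). In KO clone 2, Ncl (0.55, 0.0153), Npm1 (0.38, 0.0468) and Cdca2 (0.51, 0.0122) were called. Mki67 fell by 3.47 in the mean of both clones under the same correction.

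**Figure D3:**
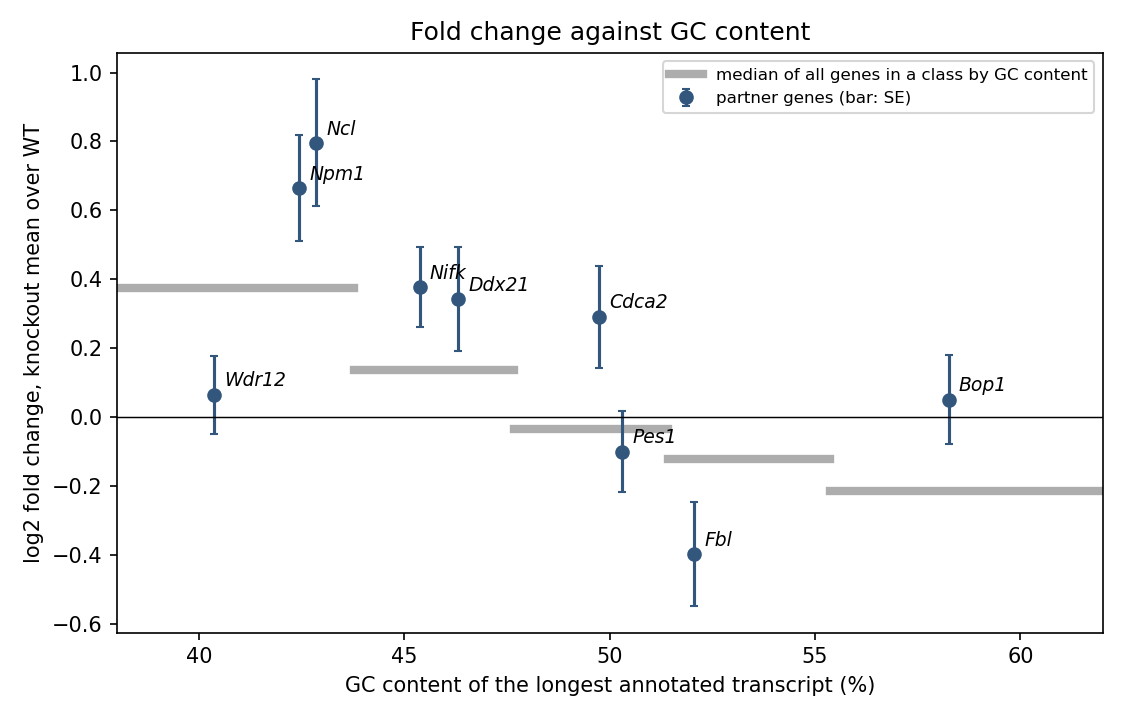
Log2 fold change of the mean of both KO clones over WT against the GC content of the longest annotated transcript, for the 9 partner genes (points, bars are standard errors). Grey bars give the median of all genes in each of the 5 GC classes, drawn within 38 to 62% on the x axis, and fall from 0.37 in the lowest class to -0.21 in the highest; Npm1 (0.66) and Ncl (0.80) lie above the bar of their class, and Wdr12 (0.07) below it.

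Levels between genes were set side by side per kilobase of merged exon. Multimapping reads were left out while lengths were taken whole, so genes that share sequence may be understated. Of 50-base transcript windows, 73.0% were shared with other genes for Fbl, 40.9% for Npm1 and 22.6% for Pes1. The places of these 3 genes in the order are uncertain. Bop1 had the highest value in each group, with 121 CPM per kilobase in KO clone 1, 103 in KO clone 2 and 108 in WT cells, followed by Pes1 with 77.9, 73.0 and 81.0. In WT cells the order then ran Nifk (38.7), Npm1 (36.1), Ddx21 (27.2), Ncl (8.51), Wdr12 (5.28), Mki67 (5.18), Cdca2 (4.17) and Fbl (4.01 CPM per kilobase). Neighbours in that order overlapped between the WT libraries for Nifk and Npm1, Npm1 and Ddx21, Wdr12 and Mki67, and Cdca2 and Fbl. Mki67 was the lowest of the 10 in both clones, at 0.438 and 0.596 CPM per kilobase. Per kilobase of the longest coding transcript instead, a scale added after the values were seen, Npm1 (58.9) stood above Nifk (40.3) in WT cells, Fbl reached 14.1, and Mki67 (5.18) was the lowest there too.

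Over the 6 libraries, the 5 protein-coding genes whose centred log2 CPM profile came closest to that of Mki67 were Ldb2, Tmem45a, Pde1a, Ttbk1 and Clstn3, with root mean square differences of 0.205, 0.240, 0.250, 0.253 and 0.277. Clstn3 had 1.06 and 1.13 CPM in KO clone 1 and 0.925 and 1.11 CPM in KO clone 2, against 9.23 and 12.0 CPM in WT cells. The other 4 did not exceed 0.0651 CPM in a KO library, against 1.09 to 1.98 CPM in WT libraries, so their likeness rests on few reads. Their fitted log2 fold changes in the mean of both clones were -6.49 (Ldb2), -5.27 (Tmem45a), -6.09 (Pde1a) and -5.21 (Ttbk1). Mki67 gave -3.35 and Clstn3 -3.37, so of the 5 genes only Clstn3 matched the size of the Mki67 fall. The partner genes lay much farther from Mki67, from 1.42 for Fbl to 1.97 for Ncl. Since 1 group contrast sets most of the Mki67 profile, likeness to it mostly restates a fall in both clones.

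Around the 10 genes, 9 lists of genes with known roles in the same structures held 106 genes, of which 104 were tested. In the mean of both clones, 26 of the 104 were called higher and 10 lower, 25.0% and 9.62%, beside 16.6% and 18.2% of all genes. In KO clone 1 the counts were 25 and 10 (24.0% and 9.62%, beside 15.2% and 16.5%), in KO clone 2 they were 21 and 8 (20.2% and 7.69%, beside 12.9% and 14.5%), and between clones both were 0 by edgeR (beside 3.54% called in either direction). The counts of single lists that follow are for the mean of both clones, against the same 16.6% and 18.2%. Of 6 other proteins of the perichromosomal layer, 2 were higher and 1 lower (median 0.06). Nop58, a core box C/D protein, had 44.5 and 65.6 CPM in KO clone 1 and 47.7 and 54.8 CPM in KO clone 2, against 26.6 and 27.1 CPM in WT cells, a rise of 0.98 ± 0.17 (adjusted p = 0.000584). Its partner Nop56 rose by 0.34 ± 0.11 (adjusted p = 0.0289), and Rrp1b, a nucleolar protein that binds protein phosphatase 1, fell by 0.31 ± 0.11 (adjusted p = 0.0424). Among the 3 catalytic subunits of protein phosphatase 1, which Ki-67 and Repo-Man recruit, Ppp1cb was called (0.55 ± 0.17, adjusted p = 0.0233; list median 0.34). Of 4 paralogs of the 10 genes, 2 were tested and 0 called; Fbll1 was at 0 in all libraries and Npm2 did not exceed 0.314 CPM.

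Among 9 core and assembly factors of box C/D particles, which carry fibrillarin, 2 were higher and 2 lower (median -0.07). Ruvbl2, a helicase of the assembly machinery, had 245 and 211 CPM in KO clone 1 and 227 and 239 CPM in KO clone 2, against 435 and 344 CPM in WT cells, a fall of 0.75 ± 0.12 (adjusted p = 0.000343). Pih1d1, of the same machinery, fell by 0.46 ± 0.11 (adjusted p = 0.00577). Of 6 core and assembly proteins of box H/ACA particles, which form pseudouridine in RNA, 2 were higher and 0 lower (median 0.03). Dkc1, the pseudouridine synthase, rose by 0.68 ± 0.18 (adjusted p = 0.00851) and the assembly factor Naf1 by 0.67 ± 0.24 (adjusted p = 0.0427). RNA polymerase I and its factors gave 2 higher and 3 lower of 16 (median 0.01). Taf1d, a subunit of its promoter selectivity factor, had 103 and 100 CPM in KO clone 1 and 139 and 139 CPM in KO clone 2, against 305 and 221 CPM in WT cells, a fall of 1.14 ± 0.13 (adjusted p = 1.3e-05). The subunits Polr1c (-0.41, adjusted p = 0.0136) and Polr1a (-0.33, adjusted p = 0.0316) fell, while the subunit gene Twistnb (0.82, adjusted p = 0.00452) and the termination factor Ttf1 (0.84, adjusted p = 0.0102) rose.

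Of 24 assembly factors of the large subunit, the pathway of PeBoW, 5 were higher and 2 lower (median 0.15). The helicase Ddx18 (0.58, adjusted p = 0.0140), the processing factor Las1l (0.48, adjusted p = 0.0190) and Rpf1 (0.44, adjusted p = 0.0154) rose, and Pak1ip1 (-0.57, adjusted p = 0.00162) and Nop16 (-0.56, adjusted p = 0.00616) fell. The small subunit processome, in which fibrillarin also acts, gave 7 higher and 1 lower of 30 (median 0.12). Mphosph10 (1.04 ± 0.20, adjusted p = 0.00147), Wdr43 (0.65 ± 0.14, adjusted p = 0.00301) and Utp3 (0.64 ± 0.18, adjusted p = 0.0149) rose, and Nol6 fell by 0.58 ± 0.13 (adjusted p = 0.00407). Among 13 mitotic genes that share the expression phase of Mki67, 7 were higher and 1 lower (median 0.45). These are 53.8% and 7.69% of the list, beside 16.6% and 18.2% of all genes. With the correction for GC content and length, the median of this list was 0.26. Top2a, the mitotic topoisomerase, had 193 and 273 CPM in KO clone 1 and 314 and 303 CPM in KO clone 2, against 107 and 137 CPM in WT cells, a rise of 1.13 ± 0.15 (adjusted p = 8.9e-05). The checkpoint kinase Bub1 (1.30 ± 0.19, adjusted p = 0.000192) and the spindle motor Kif11 (1.21 ± 0.19, adjusted p = 0.000359) rose, while Ccnb1, the gene of cyclin B1, fell by 0.39 ± 0.12 (adjusted p = 0.0220).

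Some of these single-gene calls ended when 1 library was left out. Nop56 was not called without WT replicate 1 (0.32), KO clone 1 replicate 1 (0.29) or 2 (0.37), or KO clone 2 replicate 1 (0.31) or 2 (0.36). Rrp1b was called only without WT replicate 1 among the 6 such fits, with -0.26 to -0.36 in the other 5. Ppp1cb was not called without WT replicate 1 (0.25), KO clone 1 replicate 2 (0.46) or KO clone 2 replicate 1 (0.50), and Naf1 without WT replicate 1 (0.47), KO clone 1 replicate 2 (0.56) or KO clone 2 replicate 1 (0.67) or 2 (0.68). Ccnb1 was lost without WT replicate 2 (-0.37), KO clone 1 replicate 2 (-0.36) or KO clone 2 replicate 1 (-0.37) or 2 (-0.41), and Polr1a without WT replicate 2 (-0.27), KO clone 1 replicate 2 (-0.31) or KO clone 2 replicate 1 (-0.38) or 2 (-0.30). Without KO clone 2 replicate 1, Ddx18 (0.50), Las1l (0.43), Polr1c (-0.36) and Rpf1 (0.39) were also not called. In the full fit they had 0.58, 0.48, -0.41 and 0.44, and calls over all genes also fell without that library. Ddx18 (0.42) and Nop16 (-0.31) were lost without WT replicate 1, Rpf1 (0.42) without WT replicate 2, and Las1l (0.41) and Polr1c (-0.39) without KO clone 1 replicate 2. Other called values moved by over 1.5 times without 1 WT library and kept their call: Nol6 (-0.36) and Utp3 (0.42) without WT replicate 1, and Ppp1cb (0.99), Naf1 (1.23), Ddx18 (0.87) and Utp3 (1.05) without WT replicate 2. With the correction for GC content and length, Rrp1b (-0.17), Ppp1cb (0.15), Pih1d1 (-0.24), Rpf1 (0.12) and Las1l (0.27) were not called, while Nop58 (0.60), Nol6 (-0.33), Polr1c (-0.27), Twistnb (0.47) and Ccnb1 (-0.59) were. Under it the large subunit list gave 3 higher and 3 lower, and the small subunit list 4 higher and 4 lower. RNA polymerase I gave 4 higher and 4 lower, and the mitotic list 6 higher and 1 lower. Over all 104 genes the correction gave 21 higher and 13 lower (20.2% and 12.5%), beside 2234 and 2304 of all 13120 genes. Calls over all genes moved when 1 library was left out, so changes in such fits cannot be read as a property of the lists alone. The counts of calls in the lists also moved when 1 library was left out. Over all 104 genes they were 21 higher and 11 lower without WT replicate 1, 35 and 11 without WT replicate 2, 19 and 6 without KO clone 1 replicate 2, and 15 and 6 without KO clone 2 replicate 1. The small subunit list gave 4 higher and 2 lower without WT replicate 1, 12 and 4 without WT replicate 2, and 4 and 1 without KO clone 2 replicate 1. The large subunit list gave 8 and 2 without WT replicate 2, 3 and 2 without KO clone 1 replicate 2, and 0 and 2 without KO clone 2 replicate 1. RNA polymerase I and its factors gave 4 and 3 without WT replicate 1, and 2 and 1 without KO clone 1 replicate 2 or KO clone 2 replicate 1. The box C/D list and that of other perichromosomal proteins each had 1 higher when a library other than WT replicate 2 was left out. The box H/ACA list had 1 higher without WT replicate 1, KO clone 1 replicate 2 or either replicate of KO clone 2, and 2 higher and 1 lower without WT replicate 2. The mitotic list kept 6 or 7 higher and 0 or 1 lower in all 6 fits.

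**Figure D4:**
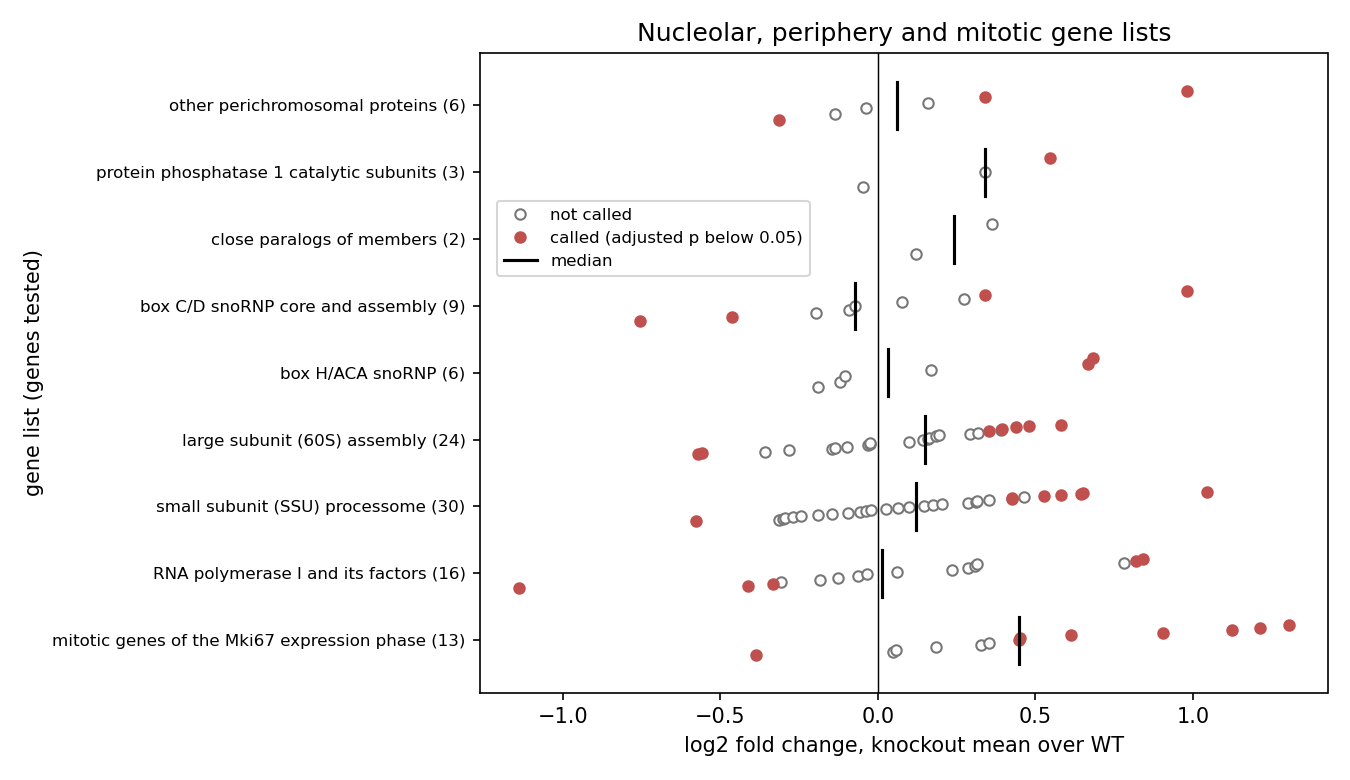
Log2 fold change of the mean of both KO clones over WT for each tested gene of the 9 lists, with filled points for called genes, open points for the rest and black bars for list medians. Medians run from -0.07 for the box C/D list to 0.45 for the mitotic list, and called genes lie on both sides of 0 in 6 of the 9 lists.

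On chromosome 7, 13 tested genes start within 2 Mb of Mki67. In the mean of both clones 2 were higher and 4 lower (15.4% and 30.8%, beside 16.6% and 18.2% of all genes), and in KO clone 1 the counts were 2 and 3 (15.4% and 23.1%, beside 15.2% and 16.5%). In KO clone 2 they were 1 and 3 (7.69% and 23.1%, beside 12.9% and 14.5%), and between clones 0 and 3 (23.1% lower, beside 2.36%). Adam12, a cell-surface metalloprotease gene at −1484 kb, had 4.84 and 3.89 CPM in KO clone 1 and no read in KO clone 2, against 32.0 and 28.6 CPM in WT cells. It fell by 2.77 ± 0.20 in KO clone 1 (adjusted p = 7.36e-07), and KO clone 2 was at least 312-fold lower than WT, taking 3 counts over the group as the floor. Dock1, a Rac exchange factor gene between Adam12 and Mki67, had 53.9 and 64.7 CPM in KO clone 1 and 68.2 and 57.2 CPM in KO clone 2, against 52.1 and 68.1 CPM in WT cells, and the groups overlapped. By gene start, the nearest tested genes were 5830432E09Rik at −64.0 kb and the long noncoding RNA gene Gm36431 at 26.3 kb. Ptpre starts at −179 kb, but its body (chr7:135537481-135686293, plus strand) reaches closest to Mki67. 5830432E09Rik lies inside Ptpre on the opposite strand. 5830432E09Rik had 1.46 and 2.07 CPM in KO clone 1 and 1.54 and 0.716 CPM in KO clone 2, against 3.26 and 3.24 CPM in WT cells; it fell by 1.51 ± 0.38 in KO clone 2 (adjusted p = 0.0103), but not without KO clone 2 replicate 2 (-1.08, adjusted p = 0.0881). In KO clone 1 its difference was -0.89 ± 0.35 (adjusted p = 0.067), called without WT replicate 1 (-0.89, adjusted p = 0.0489). Gm36431 had 0.757 and 0.816 CPM in KO clone 1 and 1.73 and 0.782 CPM in KO clone 2 and no read in WT cells, at least 4.00-fold and 6.38-fold higher against the same floor. Both were called, KO clone 1 not without WT replicate 2. Gm36431 passed the read filter only through its KO libraries, so these calls are not independent of that filter. It is among the genes counted higher above in the mean and in each clone.

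Fank1, at −1940 kb, stood at 2.78 and 2.76 CPM in KO clone 1 and 0.678 and 0.521 CPM in KO clone 2, against 0.814 and 0.270 CPM in WT cells, higher in KO clone 1 by 2.73 ± 0.47 (adjusted p = 0.000729) on 3 reads in each WT library. Without WT replicate 2 that value was 1.76. On the other side of Mki67, the transcription factor gene Ebf3 fell by 0.89 ± 0.19 in KO clone 1 (adjusted p = 0.00305) and gave -0.48 ± 0.19 in KO clone 2 (adjusted p = 0.073). The glutaredoxin gene Glrx3 fell by 0.53 ± 0.13 in KO clone 1 (adjusted p = 0.0085) and by 0.40 ± 0.13 in KO clone 2 (adjusted p = 0.0403). The Glrx3 call ended in KO clone 1 without its replicate 2 (-0.46), and in KO clone 2 without WT replicate 1 (-0.38), WT replicate 2 (-0.41), or its own replicate 1 (-0.33) or 2 (-0.49). Mgmt, a DNA repair gene at 1178 kb, had 28.1 and 27.2 CPM in KO clone 1 and 25.5 and 25.1 CPM in KO clone 2, against 33.1 and 28.1 CPM in WT cells, and was not called. Dhx32, D7Ertd443e, Ptpre, 9430038I01Rik and Gm45683 were not called in either clone against WT. With the correction for GC content and length, Dhx32 (0.33, adjusted p = 0.0424) and Ptpre (0.54, adjusted p = 0.0302) were called in KO clone 1.

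**Figure D5:**
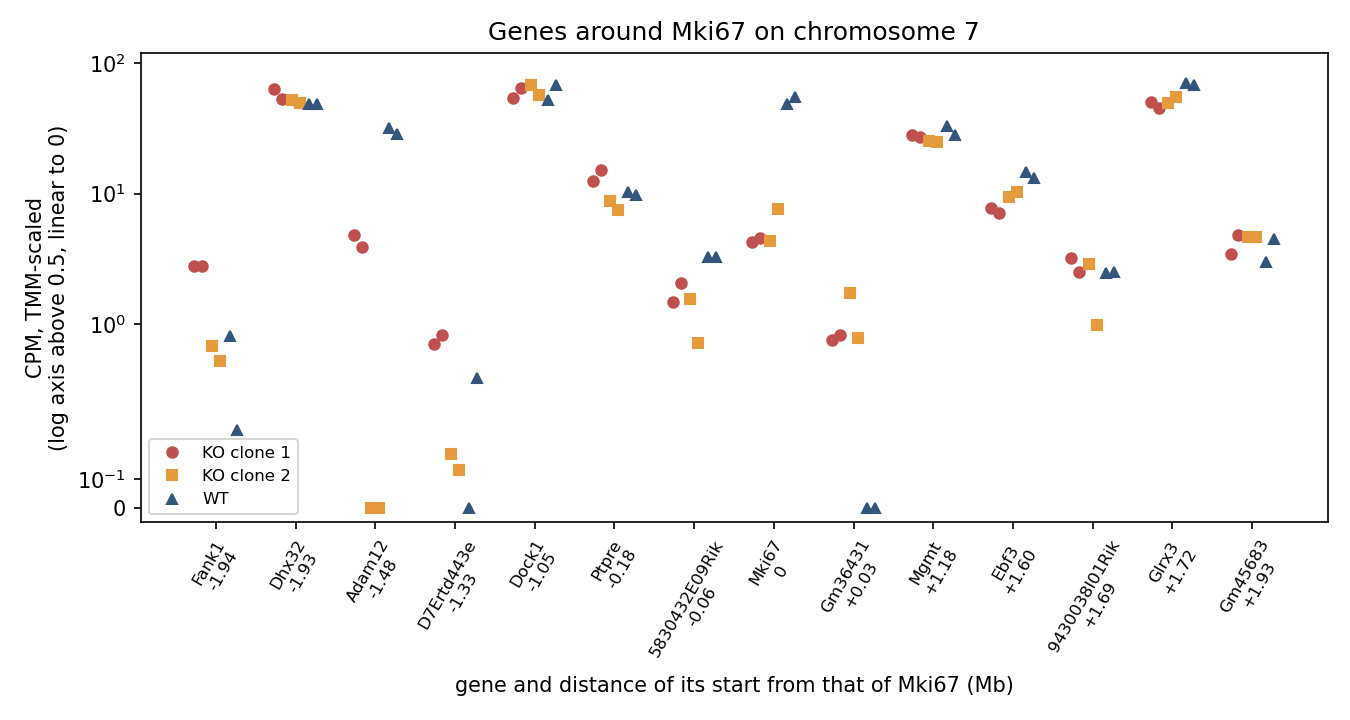
TMM-scaled CPM in each library of Mki67 and the 13 tested genes that start within 2 Mb of it, ordered by the distance of their start in Mb (negative towards lower coordinates), with KO clone 1, KO clone 2 and WT from left to right within a gene. The axis is linear below 0.5 CPM and logarithmic above; Mki67 and Adam12 lie lower in both clones, while Dock1 between them overlaps between all groups.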

How the data were processed

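Total RNA of 6 libraries, 2 from each of KO clone 1, KO clone 2 and WT NIH/3T3 cells, was depleted of ribosomal RNA and prepared with a strand-specific kit, per the labels' protocols. Reads were checked with FastQC and aligned with STAR 2.6.0c to GRCm38, per the submitters' processing notes. The deposited values are raw counts of reads per gene, with and without regard to strand. Which annotation release was counted on was not given in the sources used here. Reverse-strand counts were used; the opposite strand held 4.68% to 6.10% of both strands' counts. Rows without a gene took 46.6% to 50.5% of reads, among them multimapping reads (28.3% to 30.3%), and were left out, so genes with near-identical copies are counted by their unique parts.

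Gene names and positions came from GENCODE M21, which matched 54079 of 54146 identifiers. edgeR 4.0.16 in R 4.3.3 kept genes by filterByExpr (minimum count 10), scaled libraries by TMM (factors 0.951 to 1.03) and fitted all 6 libraries by quasi-likelihood, a coefficient for each group, leaving 3 residual degrees of freedom. CPM are printed with the same scaling, and 3 counts equal 0.152 to 0.775 CPM per library; such floors cover counting error only. Libraries of the same group varied beyond sampling noise (chi-square per degree of freedom 19.6 in KO clone 1, 22.3 in KO clone 2 and 13.6 in WT). Sharing of sequence was counted over all 50-base windows of a member's transcript against all other genes' transcripts.

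The members and gene lists were chosen with earlier results of these data known, so no p is given over a list. The text names all members, up to 3 called genes per list and direction with the largest change, the 5 genes most like Mki67, tested genes within 2 Mb of Mki67 and small RNA genes inside members. Alternatives were DESeq2 1.42.0, its size factors in edgeR, unscaled library sizes, no filter, unstranded counts, a replicate block, an offset for GC content and length, both together, thinning to 3873249 counts, only the groups compared, and leaving out each library.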

Additional observations from a re-analysis of the deposited data

Results flagged for a closer look

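Among reads that the comparisons do not use, the strand opposite to Ncl held 20 and 23 reads in KO clone 1 and 17 and 19 in KO clone 2, against 3 and 10 in WT cells. The highest share of both strands' reads in a KO library was 0.917%, in KO clone 1 replicate 1, against 1.10% and 0.889% in WT cells, so the shares overlap between groups.

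The clones differed in 3 genes around Mki67, by a test of KO clone 2 against KO clone 1 itself. The log2 difference was -2.19 for Fank1 (adjusted p = 0.00187) and -0.76 for Ptpre (adjusted p = 0.0328), both lower in KO clone 2. DESeq2 called neither (adjusted p = 0.0651 for Fank1 and 0.106 for Ptpre). With unstranded counts the Ptpre difference was -0.04 (adjusted p = 0.955), and its value in KO clone 2 against WT was 0.44, while reverse-strand counts gave -0.28. The Ptpre difference was also not called without KO clone 1 replicate 2 (-0.62) or KO clone 2 replicate 1 (-0.89) or 2 (-0.65), after thinning (-0.70) or with unscaled library sizes (-0.76). For Adam12 it was -8.91 (adjusted p = 4.53e-06), a fitted value that depends on the prior count because KO clone 2 had no read, and is no bound. Adam12 nevertheless lay below both WT libraries in all 4 KO libraries.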

How the results depend on the processing

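Over the 10 members, 4 comparisons and 16 alternatives, 602 values kept their side of the threshold, 20 became called with their sign kept and 16 lost their call with their sign kept. In all, 41 values changed sign; 39 of these were called neither before nor after, 19 of them when 1 library was left out. The other 2 were called: with the replicate block and the offset for GC content and length together, Wdr12 was called at -0.39 in the mean of both clones and -0.41 in KO clone 2. The same setting ended the call of Npm1 in KO clone 2 (0.39, adjusted p = 0.0503) and in KO clone 1 (0.30, adjusted p = 0.109) and that of Nifk in the mean (0.17, adjusted p = 0.229). Between the clones, leaving out 1 library gave -0.15 to 0.57 for Ncl and -0.03 to 0.80 for Mki67, none of them called. Around Mki67, DESeq2 did not call 5830432E09Rik (-1.51) or Glrx3 (-0.39) in KO clone 2. Genes called in KO clone 2 against KO clone 1 numbered 465, but 813 without the filter, 833 with the offset, 788 with block and offset and 219 after thinning; leaving out 1 library gave 156 to 1208. With only the 2 clones fitted, 1 member (Nifk) was called there. Leaving out 1 library gave 2205 to 4348 genes and 2 to 5 members in KO clone 1, 1669 to 4010 genes and 2 to 5 members in KO clone 2, 3359 to 4449 genes and 3 to 5 members in their mean, and 0 to 1 member between clones. The lowest counts came without KO clone 1 replicate 2 (2205) and without KO clone 2 replicate 1 (1669) or replicate 2 (2083).

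The labels do not state whether replicate numbers pair the samples. Correlations of the replicate differences cannot settle this. They were -0.103 between the clones, 0.237 between KO clone 1 and WT and -0.0761 between KO clone 2 and WT. The replicate block called 4874, 4447, 3955 and 634 genes in the mean, KO clone 1, KO clone 2 and between clones, and 5, 4, 4 and 0 members, with Ddx21 added in the mean (0.36) and in KO clone 2 (0.43). Unscaled library sizes made 57.2% of the calls in the mean of both clones higher, against 47.7% with scaling, and shifted the median of all genes by 0.08; without the filter the median was 0.15. Of the values of called list genes over the same alternatives, 351 kept their call and 65 lost it. The shallow WT replicate 1 limits the precision of low genes.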
